A study of Homo sapiens with 9 samples.

Results

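The cholesterol and fatty acid synthesis pathway was followed through 30 genes in OVCAR5 cells, an established human ovarian cancer line. The genes were listed by symbol and matched to the count table through their Ensembl identifiers, and they make up 30 of the 60649 gene identifiers in the table. All 30 passed the filter on low counts that left 19674 genes for testing. By role they comprise 18 enzymes of sterol synthesis (7 of the mevalonate steps, 3 from squalene to lanosterol and 8 after lanosterol), 5 regulators, 1 sterol carrier and 6 enzymes of fatty acid synthesis and desaturation.

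Cholesterol is built from acetyl-CoA in the cytosol and the endoplasmic reticulum, through mevalonate, isoprenoid diphosphates, squalene and lanosterol, while long-chain fatty acids are built from the same precursor and then elongated and desaturated. Transcription of most of these enzymes is driven by the sterol regulatory element-binding proteins, SREBP1 and SREBP2, which are made as membrane-bound precursors. When membrane sterol is low, the escort protein SCAP carries them to the Golgi for cleavage, and when sterol is plentiful the INSIG proteins hold SCAP and its cargo in the endoplasmic reticulum. INSIG1 is itself a well-known target gene of the SREBPs.

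RNA sequencing covered 9 libraries of OVCAR5 cells that had been infected with lentivirus and selected with puromycin, 3 each labelled NC, SM2 and SM4. Per the labels, NC is the control, while METTL3 was knocked down in SM2 and SM4. METTL3 is the catalytic subunit of the complex that writes N6-methyladenosine on RNA. The labels do not say which hairpin against METTL3 was used in SM2 or in SM4, the series text calls the control parental whereas the methods describe a control hairpin, and a source field names another OVCAR line for each SM4 library. Nothing states that the replicates came from separate cultures, so p-values measure only the spread between these libraries, which may be technical.

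METTL3 itself went against the labels. Its level was 36.2, 34.4 and 36.6 CPM (counts scaled to the library total) in the libraries labelled NC, 37.0, 39.8 and 39.99 CPM in those labelled SM2, and 60.5, 57.5 and 62.4 CPM in those labelled SM4. All SM4 libraries lay above every other library. Every adjusted p below comes from the quasi-likelihood F test of edgeR, adjusted over all genes tested by the Benjamini-Hochberg method. By this test the log2 fold change was 0.75 for SM4 against NC (SE 0.0539, adjusted p 2.21e-09) and 0.12 for SM2 against NC (SE 0.0549, adjusted p 0.12). Each direction below therefore rests on the labels alone. Which label holds the control cannot be settled from these counts alone. A supplementary list of the study gives log2 fold changes for each hairpin against the control hairpin. For METTL3, PECAM1 and LYZ, its first hairpin lies close to SM4 against NC here (0.75, 1.32 and -0.17) with the signs turned. Its second hairpin lies close to SM4 against SM2 (0.63, 0.73 and -0.67), again with the signs turned. By these genes the libraries labelled SM4 would be the control. Other genes of that list were not compared. If the labels were crossed in this way, the comparisons with a control would be NC against SM4 and SM2 against SM4. The signs printed below for SM4 against NC and SM4 against SM2 would then turn. SM2 against NC would compare a knockdown with another knockdown.

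Total counts ranged from 44103272 to 63693728 per library, so that 1 CPM stood for 43.9 to 63.2 counts. SM2 replicate 3 stood apart from its group in a way that followed gene length. Its log2 CPM, less the mean of SM2 replicates 1 and 2, had a median of 0.13 over the shortest genes (exons of up to 1979 bases) and -0.09 over the longest (6974 bases or more). All 8 epithelial markers were measured, and their summed level was 11393 to 11868 CPM in NC, 12763 to 13309 CPM in SM2 and 12335 to 13089 CPM in SM4. Mesenchymal markers (3 of 6 passed the filter) summed to 21.3 to 24.99 CPM in NC, 22.6 to 27.3 CPM in SM2 and 22.01 to 24.8 CPM in SM4. Leukocyte markers (2 of 6) summed to 41.1 to 45.0, 58.9 to 62.7 and 41.1 to 44.3 CPM, most of it LYZ and CD14. Endothelial markers (1 of 4) summed to 5.41 to 5.85, 7.79 to 8.90 and 13.1 to 15.2 CPM, most of it PECAM1, with KDR at 0. The epithelial, leukocyte and endothelial sums thus moved with the labels, and their part in the results was not tested. The epithelial genes did not move together. KRT8, KRT18, KRT19 and MUC1 were called higher than NC under both labels. CDH1 was lower under both (log2 fold change -0.25, adjusted p 0.000534, in SM2 and -0.37, adjusted p 8.7e-06, in SM4). EPCAM was lower in SM2 (-0.18, adjusted p 0.00307) and not called in SM4 (-0.11, adjusted p 0.0677). KRT7 and CLDN4 were not called. In bulk RNA a change in the number of cells that express a gene and a change in RNA per cell cannot be told apart.

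Most of the pathway was higher in the libraries labelled SM2 than in those labelled NC. Of the 30 genes, 22 were higher and 1, PMVK, was lower, so that 23 (76.7%) passed the test, against 22.3% of all genes tested (12.0% higher and 10.3% lower). Their median log2 fold change was 0.34, beside -0.0037 over all genes tested. The libraries labelled SM4 differed from NC in only 6 of the 30 genes, all higher: TM7SF2, SREBF1, SREBF2, FASN, SCD and FADS2. That share, 20%, stood near the 21.2% of all genes tested (11.0% higher and 10.2% lower), with a median of 0.04 beside -0.0011. Directly compared, SM4 was below SM2 in 20 genes and above it in 1, again PMVK, against 6.76% of all genes lower and 6.04% higher (12.8% in all). The median of that difference was -0.29 on the log2 scale.

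The comparisons are not independent, since SM2 against NC and SM4 against NC share the NC libraries, and SM4 against SM2 uses those of SM2 again. Without SM2 replicate 3, SM2 against NC still called 23 genes and SM4 against SM2 called 22, whereas SM4 against NC, which does not compare that library, called 11. Leaving it out changes the genes that pass the filter, the normalization and the common spread together, and these were not tested apart. The 5 genes gained there were HMGCS1 and CYP51A1, both lower, and MVK, PMVK and ACACA, all higher. Group means placed SM2 highest for 27 of the 30 genes (90%), SM4 highest for 3 (PMVK, ACACA and ELOVL6) and NC highest for none, where SM2 was highest for 32.6% of all genes tested. The genes took 0.331% to 0.339% of all counts in NC, 0.415% to 0.438% in SM2 and 0.366% to 0.367% in SM4.

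**Figure D1:**
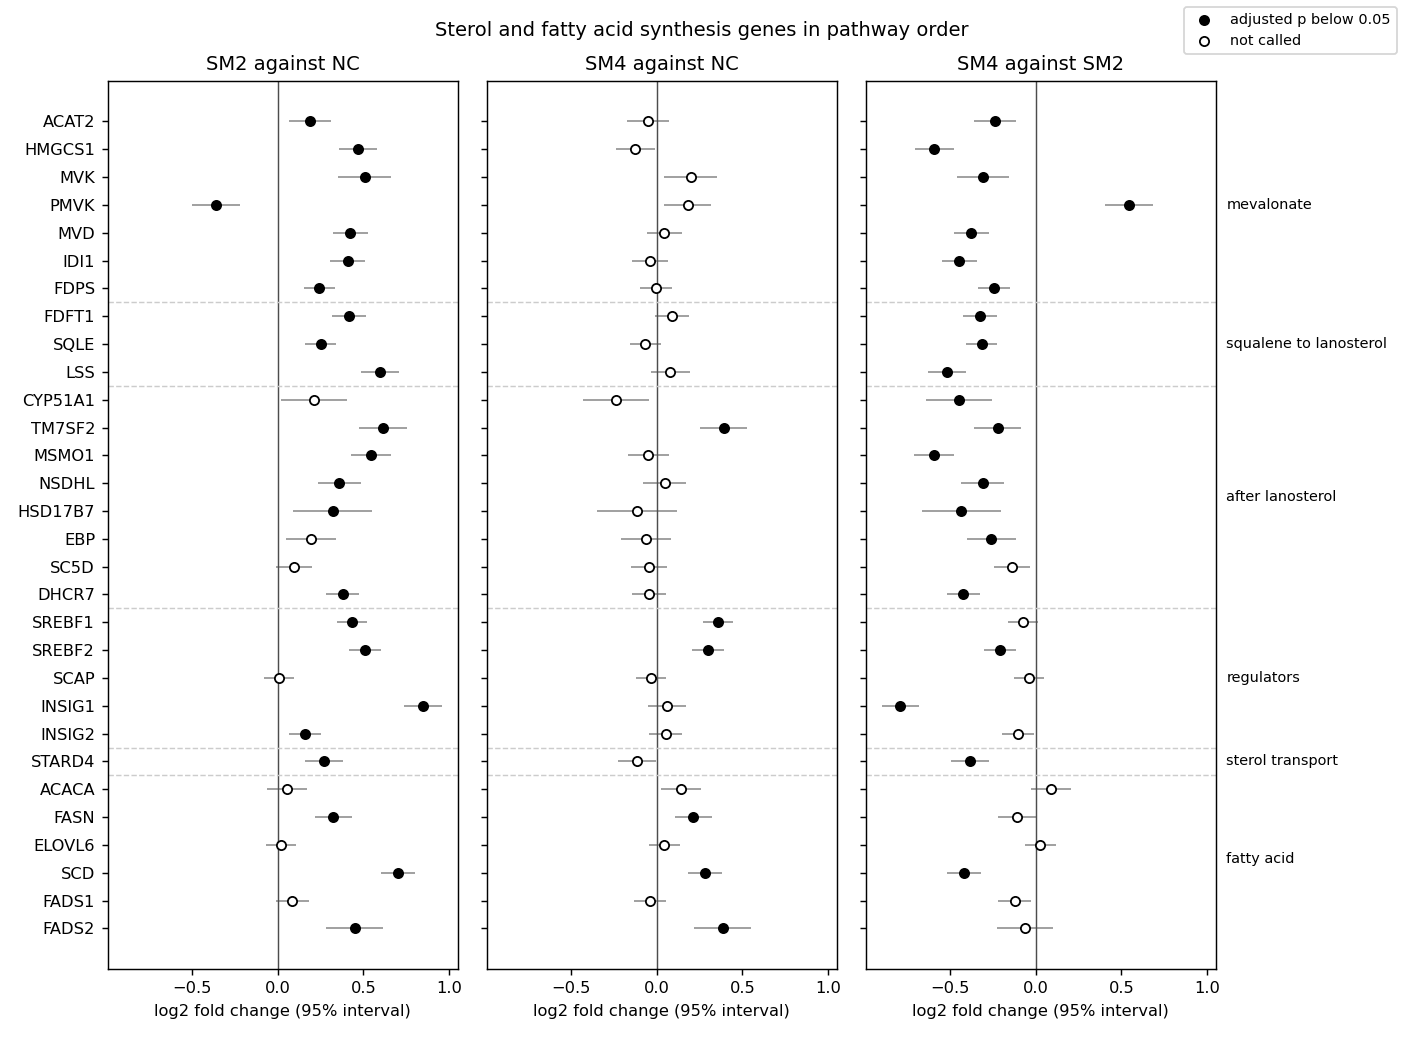
Log2 fold change (x axis) of the 30 genes in pathway order (y axis) in the 3 comparisons between labels, with 95% intervals from edgeR; filled circles passed an adjusted p of 0.05 and open circles did not. Filled circles lie to the right of 0 for 22 genes in SM2 against NC and for 6 in SM4 against NC, and PMVK alone lies to the left in the first panel.

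Promoter sequence was read from RefSeq (GRCh38.p14) as windows from 250 bases before to 50 bases after each start site, which gave 35 windows for 26 of the genes. ACAT2, FDFT1, SQLE and FASN had no window. On both strands, CCAAT, the box bound by NF-Y, stood in 22 of the 35 windows (62.9%) beside 34.6% of all 35116 windows. GGGCGG, the Sp1 box, stood in 31 (88.6%, beside 45.0%), CACGTG, an E-box, in 5 (14.3%, beside 7.26%), and TCACNCCAC, a form of the sterol regulatory element, in 1 (2.86%, beside 1.13%), that of SREBF2. NF-Y and Sp1 are known partners of the SREBPs, and a match is a description of letters only. Windows of the same gene were counted separately, and the windows of all genes were not limited to genes expressed here. No CCAAT stood in the windows of PMVK, SREBF1, INSIG2, CYP51A1, SCAP, ELOVL6 and FADS1. Of these, SREBF1 and INSIG2 were called higher in SM2 than in NC. The window parts before the gene start are shown for INSIG1, which differed most between labels among the 30 genes. They are also shown for MSMO1, a late enzyme with 4 CCAAT boxes, for SREBF2, and for PMVK, which ran against the others. All are written from 5′ to 3′ on the strand of the gene, with capitals marking CCAAT, its reverse complement ATTGG and the sterol element. They are INSIG1 at chr7:155297628-155297775 (plus strand), MSMO1 at chr4:165327419-165327666 (plus), SREBF2 at chr22:41832855-41833104 (plus) and PMVK at chr1:154936720-154936969 (minus).
INSIG1: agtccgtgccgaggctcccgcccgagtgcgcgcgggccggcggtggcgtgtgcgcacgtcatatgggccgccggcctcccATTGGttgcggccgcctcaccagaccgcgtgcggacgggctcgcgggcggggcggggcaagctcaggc
MSMO1: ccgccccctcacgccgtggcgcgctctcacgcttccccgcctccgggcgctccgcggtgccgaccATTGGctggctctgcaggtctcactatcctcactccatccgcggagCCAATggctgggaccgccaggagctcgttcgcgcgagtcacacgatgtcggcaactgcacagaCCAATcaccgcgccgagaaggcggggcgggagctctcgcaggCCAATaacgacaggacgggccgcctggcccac
SREBF2: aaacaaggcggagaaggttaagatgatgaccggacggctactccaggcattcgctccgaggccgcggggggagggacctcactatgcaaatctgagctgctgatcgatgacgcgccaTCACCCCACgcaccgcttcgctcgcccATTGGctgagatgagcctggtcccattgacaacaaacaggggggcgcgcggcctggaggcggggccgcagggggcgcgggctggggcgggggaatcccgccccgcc
PMVK: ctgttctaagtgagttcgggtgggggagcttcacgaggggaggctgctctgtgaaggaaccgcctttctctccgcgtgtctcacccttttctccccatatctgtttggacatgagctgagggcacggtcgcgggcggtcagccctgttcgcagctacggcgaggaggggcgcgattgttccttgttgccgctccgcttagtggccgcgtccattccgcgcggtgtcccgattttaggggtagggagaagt

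Among the regulators, INSIG1 differed most, and it was raised in SM2 alone of the labels. INSIG1 (ENSG00000186480.13, chromosome 7, 155297776 to 155310235) was at 49.1, 48.8 and 46.4 CPM in NC, 89.2, 81.9 and 88.7 CPM in SM2, and 48.9, 52.8 and 48.3 CPM in SM4. The SM2 libraries stood well above all others, while NC and SM4 overlapped. SM2 was 1.80-fold above NC (log2 fold change 0.85, SE 0.0528, adjusted p 4.02e-10), and SM4 was below SM2 (log2 fold change -0.79, SE 0.0525, adjusted p 1.86e-09). SM4 differed from NC by 0.06, with a 95% interval of -0.05 to 0.17. INSIG2, which retains SCAP in the same way, was at 68.6, 64.6 and 67.7 CPM in NC, 74.3, 74.9 and 74.9 CPM in SM2, and 67.7, 70.4 and 70.1 CPM in SM4. Its SM2 libraries lay just above the rest, with a log2 fold change of 0.16 against NC (adjusted p 0.016). Without NC replicate 2 that value was 0.13 (adjusted p 0.107) and without SM2 replicate 2 it was 0.15 (adjusted p 0.06), so the call was lost in both cases.

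Both SREBP genes were higher than NC under both labels. SREBF2, whose product mainly drives sterol genes (ENSG00000198911.12, chromosome 22, 41833105 to 41907306), was at 126, 120 and 128 CPM in NC, 181, 181 and 169 CPM in SM2, and 149.6, 156 and 155 CPM in SM4. The 3 labels did not overlap, and SM4 stood between the other labels. The log2 fold change was 0.51 for SM2 (SE 0.0448, adjusted p 5.35e-08) and 0.30 for SM4 (SE 0.0447, adjusted p 4.04e-05) against NC, and SM4 was below SM2 (log2 fold change -0.21, SE 0.0445, adjusted p 0.00301). SREBF1, whose products drive fatty acid genes most strongly (ENSG00000072310.18, chromosome 17, 17810399 to 17837002), was at 172, 166 and 174 CPM in NC, 226, 235 and 230.0 CPM in SM2, and 211, 222 and 223 CPM in SM4. Here SM2 and SM4 both cleared NC, by 0.43 on the log2 scale in SM2 (adjusted p 2e-07) and by 0.36 in SM4 (adjusted p 2.06e-06). The difference of SM4 from SM2 was -0.07, with a 95% interval of -0.16 to 0.01 (adjusted p 0.28). SCAP was at 92.8, 95.8 and 95.6 CPM in NC, 93.0, 97.2 and 95.1 CPM in SM2, and 91.7, 93.2 and 92.5 CPM in SM4. All SCAP libraries overlapped, and its log2 fold changes were 0.0051 (95% interval -0.08 to 0.09), -0.03 (-0.12 to 0.05) and -0.04 (-0.13 to 0.05) for SM2 and then SM4 against NC, and for SM4 against SM2.

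**Figure D2:**
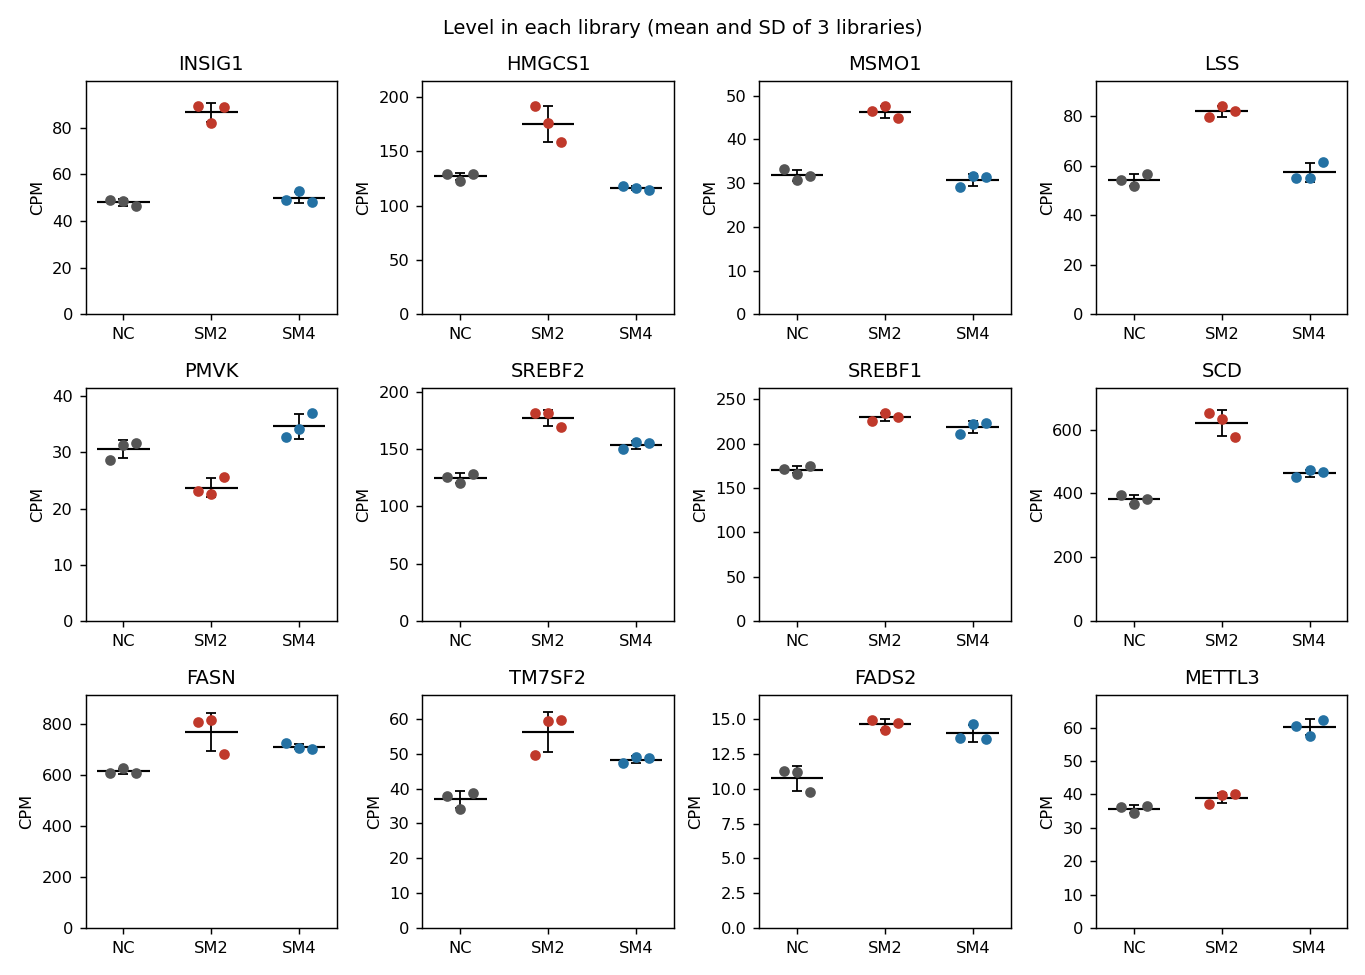
Level in CPM (y axis, from 0) of 11 pathway genes and METTL3 in the libraries labelled NC, SM2 and SM4; points are libraries, the line is the mean and the bar the SD of 3 libraries. INSIG1, HMGCS1, MSMO1 and LSS are raised in SM2 with NC and SM4 close together, SREBF1, SREBF2, SCD, FASN, TM7SF2 and FADS2 are raised in both, PMVK is lowest in SM2, and METTL3 is highest in SM4.

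All 7 genes of the mevalonate steps passed the test in SM2 against NC and in SM4 against SM2, and none did in SM4 against NC. HMGCS1, the cytosolic HMG-CoA synthase (ENSG00000112972.15, chromosome 5, 43287470 to 43313512), was at 129, 123 and 129 CPM in NC, 192, 176 and 159 CPM in SM2, and 118, 117 and 114 CPM in SM4. The SM2 libraries were highest and spread most, with replicate 3 the lowest of them, and the SM4 libraries lay just below NC. SM2 exceeded NC by 0.47 on the log2 scale (SE 0.0546, adjusted p 2.23e-06), and by 0.54 without SM2 replicate 3. SM4 was below SM2 (log2 fold change -0.60, SE 0.0546, adjusted p 1.87e-07). SM4 differed from NC by -0.13 (adjusted p 0.111), which passed the test when the SM2 libraries or SM2 replicate 3 were left out (-0.13, adjusted p 0.00597 and 0.00985).

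PMVK, the phosphomevalonate kinase, was the one gene that fell in SM2. PMVK (ENSG00000163344.6, chromosome 1, 154924740 to 154936719) was at 28.7, 31.2 and 31.7 CPM in NC, 23.1, 22.5 and 25.6 CPM in SM2, and 32.8, 34.1 and 37.0 CPM in SM4. The labels did not overlap, with SM2 lowest and SM4 highest. Its log2 fold change was -0.36 for SM2 against NC (SE 0.0676, adjusted p 0.000439) and 0.54 for SM4 against SM2 (SE 0.0670, adjusted p 8.51e-06). For SM4 against NC it was 0.18 (adjusted p 0.0594), just short of the threshold, and adjusted p lay between 0.023 and 0.0479 under 6 alternative settings, among them without SM2 replicate 3 (0.17, adjusted p 0.0232). PMVK is the shortest of the 30 genes, with 1002 exon bases, and in SM2 replicate 3 it lay 0.17 above the other SM2 libraries on the log2 scale, so that the log2 fold change from NC was -0.42 without that library.

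The other mevalonate genes rose in SM2 against NC, by log2 fold changes of 0.51 for mevalonate kinase (MVK), 0.42 for the decarboxylase MVD, 0.41 for the isomerase IDI1, 0.24 for farnesyl diphosphate synthase (FDPS) and 0.19 for the thiolase ACAT2 (adjusted p from 1.99e-06 to 0.026). SM4 was below SM2 in the same genes, with log2 fold changes between -0.24 for ACAT2 and -0.45 for IDI1. MVK showed the largest difference from NC in SM4 among them, 0.20 (adjusted p 0.0695). That difference passed the test without SM2 replicate 3 (0.19, adjusted p 0.0392) and without NC replicate 2 (0.26, adjusted p 0.0449). It also passed with only the libraries compared (0.19, adjusted p 0.0361). With all libraries kept, it passed without the filter on low counts (0.20, adjusted p 0.0453) and with upper-quartile normalization (0.21, adjusted p 0.0477). ACAT2 lost its call in SM2 against NC without SM2 replicate 3 (0.14, adjusted p 0.0749), NC replicate 1 (0.14, adjusted p 0.157) or NC replicate 3 (0.19, adjusted p 0.067). In SM4 against SM2 it lost its call without SM4 replicate 3 (-0.21, adjusted p 0.056).

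The 3 enzymes that make and close squalene all rose in SM2 and were all lower in SM4 than in SM2. LSS, lanosterol synthase, was at 54.4, 51.8 and 56.8 CPM in NC, 79.8, 84.2 and 82.3 CPM in SM2, and 55.1, 55.3 and 61.7 CPM in SM4. The SM2 libraries stood clear of the rest, and NC and SM4 overlapped. Its log2 fold change was 0.60 for SM2 against NC (SE 0.0542, adjusted p 8.29e-08), 0.08 for SM4 against NC (95% interval -0.04 to 0.19) and -0.52 for SM4 against SM2 (SE 0.0539, adjusted p 9.04e-07). Squalene synthase, FDFT1, had 118 ± 4.64 CPM in NC, 157 ± 8.45 CPM in SM2 and 125 ± 3.97 CPM in SM4 (SD, n = 3), a log2 fold change of 0.41 for SM2 against NC. Squalene epoxidase, SQLE, had 255 ± 8.02, 303 ± 10.2 and 243 ± 8.53 CPM, a log2 fold change of 0.25.

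After lanosterol, 5 of 8 enzymes rose in SM2 against NC, 1 rose in SM4 against NC and 7 were lower in SM4 than in SM2. MSMO1, the oxidase that starts the removal of the C4 methyl groups (ENSG00000052802.13, chromosome 4, 165327667 to 165343164), was at 33.2, 30.6 and 31.6 CPM in NC, 46.4, 47.6 and 44.9 CPM in SM2, and 29.0, 31.7 and 31.4 CPM in SM4. SM2 stood clear of the other labels, which overlapped. The log2 fold change was 0.54 for SM2 against NC (SE 0.0565, adjusted p 4.97e-07), -0.05 for SM4 against NC (95% interval -0.17 to 0.07) and -0.59 for SM4 against SM2 (SE 0.0563, adjusted p 2.96e-07). TM7SF2, a sterol C14 reductase, was at 37.8, 34.1 and 38.6 CPM in NC, 49.7, 59.5 and 59.8 CPM in SM2, and 47.3, 49.0 and 48.6 CPM in SM4. In the main analysis it was the only sterol enzyme called above NC under both labels. The difference was 0.61 on the log2 scale in SM2 (adjusted p 9.42e-07) and 0.39 in SM4 (adjusted p 0.000185). SM4 was below SM2 (log2 fold change -0.22, adjusted p 0.028), a call lost without SM2 replicate 2 (-0.18, adjusted p 0.133), without SM2 replicate 3 (-0.18, adjusted p 0.0508) and without any 1 of the SM4 libraries (-0.23 to -0.20, adjusted p from 0.0609 to 0.123).

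CYP51A1, the lanosterol demethylase, differed between SM4 and SM2 and not, past the threshold, from NC. It was at 9.67, 10.2 and 11.2 CPM in NC, 13.2, 11.7 and 11.2 CPM in SM2, and 9.12, 8.08 and 9.22 CPM in SM4. SM4 lay below all the others, and NC and SM2 met near 11.2 CPM. The log2 fold change was -0.45 for SM4 against SM2 (SE 0.0923, adjusted p 0.00211), 0.21 for SM2 against NC (adjusted p 0.114) and -0.24 for SM4 against NC (adjusted p 0.0744, and 0.0454 without SM2 replicate 3). In the annotation 68.2% of its exon bases also belong to another gene on the same strand, ENSG00000285772, which had 0 counts in every library, and how the counting treated shared exons is not given in the sources used here.

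Of the remaining late enzymes, the last reductase DHCR7 (0.38), the C4 decarboxylase NSDHL (0.36) and the ketosteroid reductase HSD17B7 (0.32) were called in SM2 against NC, with these log2 fold changes, and the isomerase EBP (0.19, adjusted p 0.0505) and the desaturase SC5D (0.09, adjusted p 0.213) were not. In SM4 against NC their values ran from -0.12 to 0.05, with none called. HSD17B7 rested on SM2 replicate 3, at 12.2 CPM beside 9.10 and 8.86 CPM in the other SM2 libraries and 7.87, 8.40 and 7.92 CPM in NC. Without that library its log2 fold change was 0.16 (adjusted p 0.309) for SM2 against NC and -0.28 (adjusted p 0.0734) for SM4 against SM2, and it lost the first call without any 1 of the NC libraries too (0.30 to 0.35, adjusted p from 0.0743 to 0.116), and without SM4 replicate 1 (0.32, adjusted p 0.0525) or SM4 replicate 3 (0.32, adjusted p 0.0528). The second call was also lost without SM4 replicate 2 (-0.39, adjusted p 0.0553). EBP passed the test in SM2 against NC without SM2 replicate 1 (0.23, adjusted p 0.0389). With all libraries kept, it passed with a filter at a mean of 1 CPM (adjusted p 0.0366) and with upper-quartile normalization (adjusted p 0.0381). It also passed with a replicate block (adjusted p 0.0425) and by the Wald test of DESeq2 (adjusted p 0.0419). In SM4 against SM2 the EBP difference of -0.26 (adjusted p 0.0156) was lost without SM4 replicate 3 (-0.24, adjusted p 0.0738). SC5D, at -0.14 in SM4 against SM2 (adjusted p 0.073), passed without SM2 replicate 3 (-0.16, adjusted p 0.0361) and with a replicate block (-0.14, adjusted p 0.0481). STARD4, a cytosolic sterol carrier, rose by 0.27 in SM2 against NC (adjusted p 0.000756), stood at -0.12 in SM4 against NC (adjusted p 0.139) and was lower in SM4 than in SM2 (-0.39, adjusted p 3.15e-05).

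**Figure D3:**
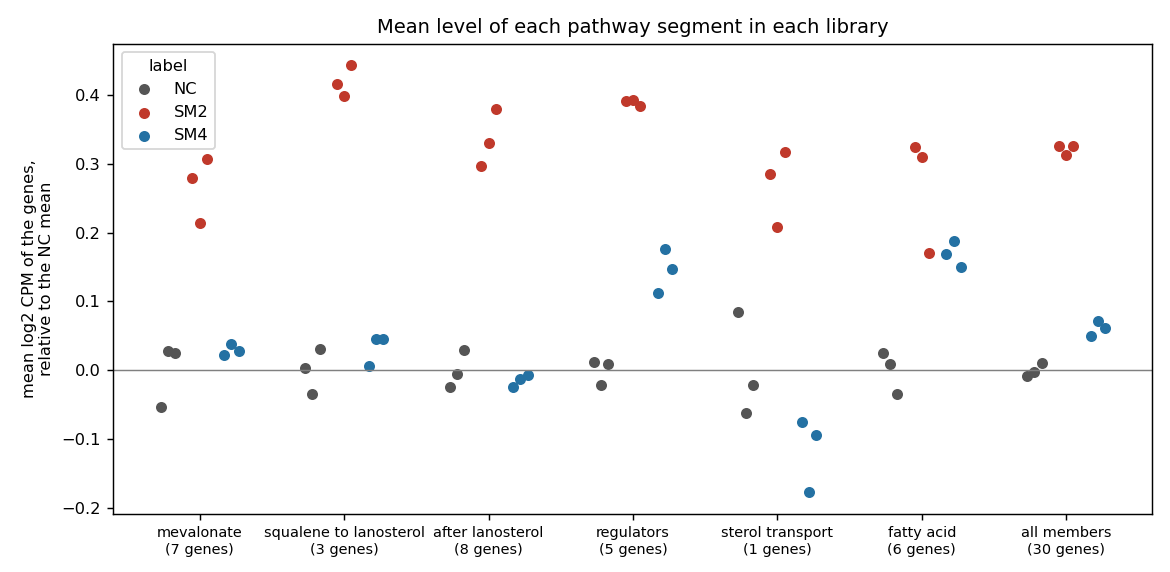
Mean log2 CPM of the genes of each role in each library, relative to the mean of the NC libraries (y axis), for the pathway segments and all 30 genes (x axis). SM2 libraries lie above all NC and SM4 libraries in the sterol segments, whereas in the fatty acid segment SM2 replicate 3, at 0.17, falls within the SM4 range of 0.15 to 0.19.

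The fatty acid enzymes divided between 3 that rose under both labels and 3 that passed no test. SCD, the delta-9 desaturase that makes monounsaturated fatty acids (ENSG00000099194.6, chromosome 10, 100347233 to 100364826), was at 395, 366 and 384 CPM in NC, 653, 634 and 576 CPM in SM2, and 452, 473 and 467 CPM in SM4. The labels did not overlap, and SM4 stood between NC and SM2. The log2 fold change was 0.70 for SM2 against NC (SE 0.0469, adjusted p 1.08e-09), 0.28 for SM4 against NC (SE 0.0468, adjusted p 0.00014) and -0.42 for SM4 against SM2 (SE 0.0467, adjusted p 2.25e-06). SCD also had the highest level per length of the 30 genes in NC, 72.8 CPM per kilobase of exon.

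FASN, the fatty acid synthase, was at 607, 625 and 606 CPM in NC, 805, 816 and 680.0 CPM in SM2, and 723, 706 and 702 CPM in SM4. Every SM2 and SM4 library lay above NC, and SM2 replicate 3 lay below all SM4 libraries. The log2 fold change was 0.32 for SM2 (adjusted p 0.00011) and 0.21 for SM4 (adjusted p 0.0053) against NC, and -0.11 for SM4 against SM2 (95% interval -0.22 to -0.0020, adjusted p 0.186). Without SM2 replicate 3 that last difference was -0.20 (adjusted p 5.71e-05) and passed the test. FADS2, the delta-6 desaturase, was at 11.3, 11.2 and 9.73 CPM in NC, 14.96, 14.2 and 14.7 CPM in SM2, and 13.7, 14.7 and 13.6 CPM in SM4. It was higher than NC under both labels, by 0.45 (adjusted p 0.000318) and 0.38 (adjusted p 0.00133), with a difference of -0.06 between SM4 and SM2 (95% interval -0.23 to 0.10). Per length it had the lowest level in NC, 1.02 CPM per kilobase.

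ACACA, the carboxylase that makes malonyl-CoA, the elongase ELOVL6 and the delta-5 desaturase FADS1 passed no test, with log2 fold changes of 0.05, 0.02 and 0.08 for SM2 against NC, 0.14, 0.04 and -0.04 for SM4 against NC, and 0.09, 0.03 and -0.12 for SM4 against SM2. For ACACA and FADS1 this depended on SM2 replicate 3, in which both were low, and for ACACA in SM4 against NC on other settings too. With all libraries kept, ACACA passed there without the filter on low counts (adjusted p 0.0329), with a term for the replicate number (adjusted p 0.0375) and with upper-quartile normalization (adjusted p 0.0478). Without SM2 replicate 3, ACACA was above NC by 0.14 in SM2 (adjusted p 0.0067) and by 0.13 in SM4 (adjusted p 0.0026). FADS1 was then above NC by 0.13 in SM2 (adjusted p 0.00809) and lower in SM4 than in SM2 (-0.18, adjusted p 0.000972). On chromosome 11, FADS1 (61799627 to 61829318) lies within the span of FADS2 (61792980 to 61867354), on the opposite strand. They share 490 exon bases, and whether strand was used in counting is not given in the sources used here.

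**Figure D4:**
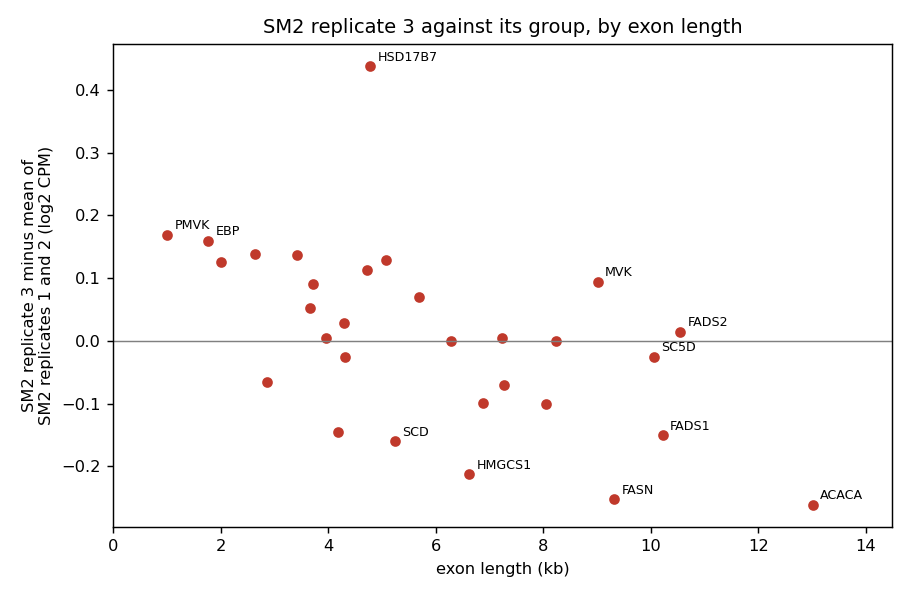
Log2 CPM of each of the 30 genes in SM2 replicate 3 less the mean of SM2 replicates 1 and 2 (y axis) against exon length in kilobases (x axis). ACACA, the longest gene, is lowest at -0.26, FASN is at -0.25 and HMGCS1 at -0.21, while HSD17B7 at 0.44, PMVK at 0.17 and EBP at 0.16 are highest.

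Other genes of the pathway, 56 on 6 lists of which 54 were tested, moved less uniformly. Among them 24 (44.4%) were called in SM2 against NC (18 higher, 6 lower, median 0.04), where 22.3% of all genes tested were called. In SM4 against NC 23 (42.6%, beside 21.2% of all genes) were called (8 higher, 15 lower, median -0.07), and in SM4 against SM2 20 (37.0%, beside 12.8%) were (6 higher, 14 lower, median -0.08). The shares of each list are read against these same 3 shares of all genes. Of 17 further genes of fatty acid synthesis and activation, 12 (70.6%) were called in SM2 against NC (9 higher, 3 lower), 9 (52.9%) in SM4 against NC (2 higher, 7 lower) and 10 (58.8%) in SM4 against SM2 (1 higher, 9 lower). ME1, the malic enzyme that supplies NADPH, fell under both labels against NC, with -0.77 on the log2 scale in SM2 (adjusted p 1.03e-09) and -0.83 in SM4 (adjusted p 2.4e-10). SCD5, a second delta-9 desaturase, rose by 0.60 in SM2 (adjusted p 2.01e-06) and fell by 0.21 in SM4 (adjusted p 0.0352), with a difference of -0.81 between SM4 and SM2 (adjusted p 7.23e-08).

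Of 6 genes of sterol sensing by LXR and of sterol efflux, 3 (50%) were called in SM2 against NC (2 higher, 1 lower), 4 (66.7%) in SM4 against NC (all higher) and 3 (50%) in SM4 against SM2 (all higher). ABCG1, a sterol exporter induced by LXR, rose by 0.96 in SM2 (adjusted p 4.24e-08) and by 1.32 in SM4 (adjusted p 2.59e-10). NR1H3, which encodes LXR alpha, was at 0.07 in SM2 (adjusted p 0.566) and rose by 0.50 in SM4 (adjusted p 1.47e-05). Of 10 genes of sterol uptake and intracellular transport, 4 (40%, 3 higher), 5 (50%, 1 higher) and 4 (40%, 1 higher) were called in the comparisons taken in the same order, the rest of the calls being lower. NPC2, which carries cholesterol out of the lysosome, rose by 0.36 and 0.46 against NC. MYLIP, a ubiquitin ligase for lipoprotein receptors, fell by 0.25 in SM2 (adjusted p 0.00479) and was 0.35 higher in SM4 than in SM2 (adjusted p 0.000337).

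Of 9 genes that process SREBPs or degrade sterol-regulated proteins, 2 were called, both higher, in SM2 against NC, a share of 22.2% that stood at the level of all genes tested, and none in SM4 against NC or SM4 against SM2. MBTPS1, the site-1 protease, was one of them (0.15, adjusted p 0.0102). Of 4 tested further genes of sterol synthesis, 2 (50%) were called in each comparison, both higher in SM2 against NC, 1 higher and 1 lower in SM4 against NC, and both lower in SM4 against SM2. ERG28, a scaffold of the C4 demethylation complex, rose by 0.38 in SM2 and was lower in SM4 than in SM2 (-0.32), while ACAT1, the mitochondrial thiolase, was lower in SM4 than in NC (-0.27) and than in SM2 (-0.29). Of 8 genes of the isoprenoid branch, which leads from farnesyl diphosphate to ubiquinone, dolichol and protein prenylation, 1 (12.5%) was lower in SM2 and 3 (37.5%) were lower in SM4 against NC, and 1 (12.5%) was higher in SM4 than in SM2, so that the first and the last lay below or near the shares of all genes. PDSS1, which makes the ubiquinone side chain, fell against NC in both (-0.56 in SM2 and -0.28 in SM4), and PGGT1B, a protein prenyltransferase subunit, fell by 0.19 in SM4.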

How the data were processed

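The deposited table holds unnormalized counts of reads per gene, made by the authors, for 9 libraries. Per the methods and the submitters' processing notes, reads were trimmed with fastp, checked with FastQC, aligned to hg38 with HISAT2 and counted with featureCounts of Subread. Versions, annotation and strand setting are not given in the sources used here, and labels and methods name different library kits and read layouts. Groups were taken from the library titles.

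Identifiers were matched without version to GENCODE v44 (60463 of 60649). In R 4.3.3, genes were filtered with filterByExpr, normalized by TMM (factors 0.989 to 1.01) and tested with edgeR 4.0.16 (glmQLFit, glmQLFTest, group alone, all 9 libraries, common biological coefficient of variation 0.0587), with Benjamini-Hochberg adjustment over 19674 genes and a call at an adjusted p below 0.05. The filter removed 40975 identifiers. The script was tested on simulated data. CPM were computed from the deposited counts with TMM, as mean ± SD of 3 libraries, and log2 CPM used a prior count of 2. Standard errors were the log2 fold change divided by the root of F. Counts carry no molecular identifiers, so counting error is a lower limit. Alternatives were DESeq2 1.42.0, other normalizations, filters and thresholds, a replicate block, the 6 libraries compared alone and each library left out.

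Members, lists and tests were chosen with earlier results of these data known. Values per library are given for METTL3, the 5 regulators and the 6 largest changes among called members of each comparison. At most 2 genes per other list are named, those with the largest change among calls, and 1 gene that met this rule is not reported here.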

Additional observations from a re-analysis of the deposited data

How the results depend on the processing

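Over 17 alternatives, the members called numbered 20 to 24 in SM2 against NC, 6 to 11 in SM4 against NC and 18 to 22 in SM4 against SM2. In SM4 against NC 11 members were called with only the 6 libraries compared. Leaving out each library gave 21 to 24, 6 to 11 and 18 to 22 members, with median log2 fold changes of 0.32 to 0.38, 0.017 to 0.045 and -0.30 to -0.26. Upper-quartile normalization gave medians of 0.35 in SM2 against NC and 0.062 in SM4 against NC, and the cause was not tested. SCAP in SM2 against NC changed sign, to -0.011 without NC replicate 1 and -0.013 without SM2 replicate 2, within a range of -0.013 to 0.020 over the libraries left out.

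No pairing by replicate number was seen. The deviations of same-numbered libraries from their group means correlated between -0.05 and 0.05, beside -0.07 to 0.09 for libraries of other numbers. With 3 libraries per group these correlations cannot exclude a pairing. With a replicate block 24, 8 and 22 members were called. Over all genes the block called 4694, 4484 and 2815, beside 4389, 4173 and 2518 without it. No setting moved the median of all genes by over 0.1.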

Other observations

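Genes that overlap members in the annotation had values of their own. MMAB, a cobalamin adenosyltransferase that faces MVK head to head and shares 225 exon bases with it on the other strand, rose in SM2 against NC by a log2 fold change of 0.54 (adjusted p 6.5e-06 by edgeR) and was lower in SM4 than in SM2 (-0.40, adjusted p 0.00031). Its levels were 20.9, 22.6 and 22.9 CPM in NC, 30.8, 30.4 and 35.4 CPM in SM2, and 25.2, 24.7 and 23.3 CPM in SM4, so that the SM2 libraries lay above all others. TCP1, a chaperonin subunit that shares 454 exon bases with ACAT2 on the other strand, was lower than NC under both labels (-0.26, adjusted p 0.000155, in SM2 and -0.20, adjusted p 0.00181, in SM4). RAI1, which shares 556 exon bases with SREBF1 on the other strand, lay between 126 and 152 CPM. It was higher than NC in SM4 (0.19, adjusted p 0.0174) and not called in SM2 (0.14, adjusted p 0.0718). Its part in the SREBF1 counts was not tested. SREBF2-AS1, which lies opposite SREBF2, reached at most 0.306 CPM in any library.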
